A study of Rattus norvegicus with 6 samples.

Results

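Cholesterol synthesis, its transcriptional control and cholesterol transport were followed here through 33 genes in the dorsal root ganglia (DRG) of rats with and without chronic constriction injury (CCI). The genes were taken by symbol from the deposited gene table. Where a symbol stood on several rows, a protein-coding row was taken first and then the row with the most counts. All 33 genes were found among the 43350 rows, and all 33 were among the 26663 rows that reached a mean level of 0.5 FPKM (read fragments scaled by gene length and sequencing depth) and were tested. They comprised 18 synthesis enzymes, 5 regulators of the SREBP system, 6 LXR receptors and LXR targets, and 4 genes of transport and storage.

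The libraries came from the L4-6 DRG of male Sprague-Dawley rats, taken on day 11 after surgery from the operated side. The sciatic nerve had been tied loosely in the 3 CCI rats. For the 3 sham rats the labels list no treatment, and the methods describe a nerve laid bare and left untied. The labels give no age, and the age in weeks that the methods state for the rats on arrival is not restated here. Each library is described in the methods as 1 rat, while the library protocol in the labels speaks of a pooled sample. The ganglion was sequenced as a whole, without sorting of cells, from RNA depleted of ribosomal RNA.

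Cells make cholesterol from acetyl-CoA. The mevalonate arm of the pathway builds farnesyl pyrophosphate, and the sterol arm joins this into squalene, closes it into lanosterol and trims it to cholesterol. When sterols in the endoplasmic reticulum are low, SCAP escorts the SREBP transcription factors to the Golgi for activation, and they raise the genes of synthesis. When sterols are high, INSIG proteins hold SCAP back, and oxysterols activate the LXR nuclear receptors, which raise genes of cholesterol export such as Abca1 and Abcg1. In peripheral nerve, myelinating Schwann cells are rich in cholesterol, and macrophages that take up myelin must store or export it.

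The total count ranged from 75423546 to 87615743 per library. All 8 DRG neuron markers were present, and they summed to 1801, 1874 and 1851 FPKM in CCI 1, 2 and 3 and to 1865, 2101 and 2042 FPKM in sham 1, 2 and 3. Of these markers 7 had a log2 fold change below 0, with a median of -0.20 over the 8. An unadjusted p under 0.05 with a lower level in CCI was found for 4 of them (Nefh, Calca, Trpv1 and Ntrk3), 1 (Prph) had it with a higher level, and 0 were called. Of 11 macrophage markers 6 were called higher in CCI, and their summed level was 82.7, 69.5 and 53.6 FPKM in CCI 1, 2 and 3 against 34.4, 34.6 and 43.4 FPKM in sham 1, 2 and 3. The 11 Schwann cell and myelin markers summed to 2716, 2999 and 3800 FPKM in CCI and to 3840, 3481 and 3397 FPKM in sham, with 8 below 0, a median log2 fold change of -0.14 and 1 called lower. The 5 satellite glia markers summed to 92.4 to 108 FPKM in CCI and 97.2 to 108 FPKM in sham, with 0 called. Sham 1 stood apart in the 7 skeletal muscle markers, which summed to 129 FPKM there and to 4.26 to 18.8 FPKM in the other libraries, and 5 of them were called lower in CCI. The 5 adipocyte markers summed to 1.22 to 2.87 FPKM, with 1 of them at 3 counts or fewer in every library. The 3 hepatocyte markers summed to at most 0.518 FPKM, and 0 of them passed the filter.

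Genes were called at the study's limits, which are an unadjusted p under 0.05, here from edgeR's quasi-likelihood test, and a change of 0.58 or more on the log2 scale in either direction. Of the 33 cholesterol genes, 1 was called higher in CCI and 1 lower. The gene called higher was Abca1, which exports cholesterol to apolipoproteins, and the gene called lower was Abcg1, which exports cholesterol to lipoprotein particles. Each was 3.03% of the cholesterol genes, while across all rows tested 2.57% were called higher and 1.26% lower. Both calls stood without sham 1, the library with the raised muscle markers. Among the 33, none of the 18 listed synthesis enzymes, SREBP regulators or genes of transport and storage was called. The 18 do not include every enzyme of the pathway, and further annotated genes are counted below. At a Benjamini-Hochberg adjusted p under 0.05, 0 of the 33 genes and 0.0938% of all rows passed, and the lowest adjusted p among the 33 was 0.150 by edgeR's quasi-likelihood test, for Abca1. DESeq2 called 1 of the 33 at its adjusted p, again Abca1.

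Without the fold limit, 2 cholesterol genes (Abca1 and Soat1) had an unadjusted p under 0.05 with a higher level in CCI, and 4 (Cyp51, Nsdhl, Sc5d and Abcg1) with a lower level. These were 6.06% and 12.1% of the genes, against 5.57% and 5.18% of all rows. The groups did not overlap for 9 genes. In 5 of them (Abca1, Soat1, Srebf1, Mvd and Lpcat3) every CCI library lay above every sham library, 15.2% against 8.63% of all rows. In the other 4 (Cyp51, Nsdhl, Sc5d and Abcg1) every CCI library lay below, 12.1% against 8.7% of all rows.

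The cholesterol genes were measured more closely than most rows. Their median standard error of the log2 fold change was 0.09, against 0.18 over all rows, and their median mean count was 4354 reads per library, against 588 over all rows. For 31 of the 33, which is 93.9%, the whole 95% interval of the log2 fold change lay within 0.58 of 0, while 47.0% of all rows had such an interval. The exceptions were Abca1 and Abcg1. The median log2 fold change was -0.02 over the 33 genes and 0.01 over all rows, with 16 genes above 0 and 17 below.

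**Figure D1:**
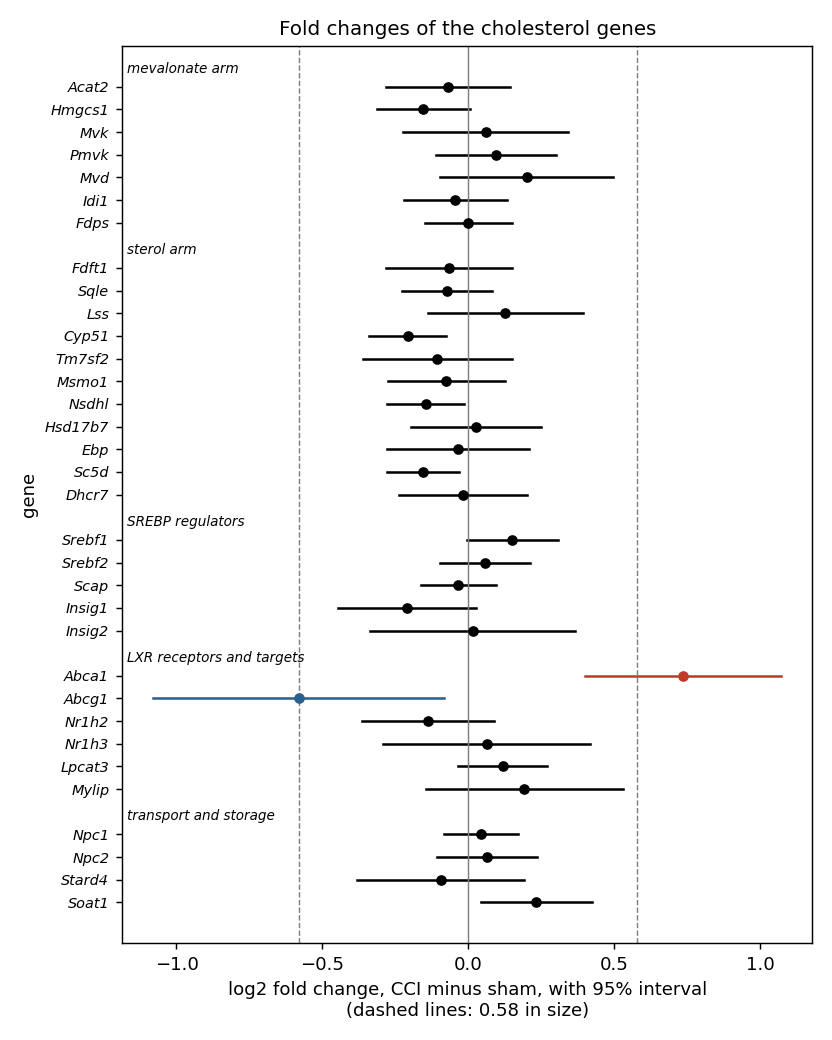
Log2 fold change of each cholesterol gene in CCI relative to sham (horizontal axis), grouped by role, with points for the edgeR estimate and lines for its 95% interval, from 3 libraries per group. Abca1 in red (0.74) and Abcg1 in blue (-0.58) were the genes called, and the intervals of the other 31 lay between the dashed lines at 0.58 in either direction.

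Levels per library are counts scaled to a common library size (CPM, after TMM scaling), always in the order of replicates 1, 2 and 3. Abca1 lies on chromosome 5 from 69857771 to 69983015 on the minus strand in the genome the files use, and it encodes the transporter that loads cholesterol and phospholipid onto apolipoprotein A-I. Its level was 638.5, 465.7 and 446.0 CPM in CCI and 312.2, 296.6 and 321.6 CPM in sham. All 3 CCI libraries lay above the sham libraries, and CCI 1 lay far above CCI 2 and CCI 3. The means were 517 ± 106 CPM in CCI and 310.2 ± 12.6 CPM in sham (SD, n = 3 each). The log2 fold change was 0.74 ± 0.14 (SE), a 1.67-fold increase with a 95% interval of 1.32 to 2.10, at an unadjusted p of 0.00146 and an adjusted p of 0.150 in edgeR's quasi-likelihood test. Without CCI 1 the log2 fold change was 0.56, under the fold limit, at an unadjusted p of 0.000137.

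Both Abca1 and the summed macrophage markers were higher in every CCI library than in every sham library. CCI 1 held the highest level of Abca1 and the highest summed level of the 11 markers, and CCI 3 the lowest of the CCI libraries in both. Of the single markers, Ptprc and Aif1 were highest in CCI 2, and the others fell from CCI 1 to CCI 3 as the sum did. A log2 fold change above 0 was found for 10 of the 11 markers, with a median of 0.75. Among the sham libraries sham 3 was the highest in both, and the lowest was sham 2 for Abca1 and sham 1, close to sham 2, for the markers. Prph of the neuron list, Egr2 of the Schwann cell list and Cdh19 of the satellite glia list were also higher in every CCI library and highest in CCI 1. In those lists 7 of 8, 8 of 11 and 3 of 5 markers had a log2 fold change below 0. The part of macrophages or any other cell type in the Abca1 result was not tested. In a ganglion sequenced whole, fewer cells of a type and less RNA per cell cannot be told apart, and likewise more cells and more RNA.

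The promoter of Abca1 is shown because LXR is known to act through a response element in it. RefSeq promoters (250 bases before to 50 after the start, GRCr8 build, which is not the build of the files) were matched by symbol for 28 of the 33 genes. Abcg1, Pmvk, Fdft1, Sqle and Stard4 had no match and were not searched. A direct repeat of the LXR type was searched on both strands as GGTTA, then 5 bases of any kind, then GGTCA, and this form was chosen with Abca1 in mind. It stood in 18 of 33469 promoters (0.0538%), and among the matched cholesterol genes in Abca1 alone, 70 to 56 bases before the start, on the opposite strand. The printed stretch covers the 140 bases before the start, chr5:72596474-72596613 on the minus strand, with the half-sites in capitals.
Abca1: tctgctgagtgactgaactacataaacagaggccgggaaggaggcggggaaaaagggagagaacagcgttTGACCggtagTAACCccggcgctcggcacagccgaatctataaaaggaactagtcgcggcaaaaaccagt

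Abcg1 (chromosome 20, 9743269 to 9840489, plus strand) encodes the transporter that moves cholesterol to high-density lipoprotein. It stood at 35.8, 39.5 and 43.6 CPM in CCI and at 45.6, 79.3 and 53.0 CPM in sham. The groups did not overlap, but CCI 3 and sham 1 lay close to each other, and sham 2 stood well above the rest. The means were 39.6 ± 3.90 CPM in CCI and 59.3 ± 17.8 CPM in sham (SD, n = 3 each). The log2 fold change was -0.58 ± 0.21 (SE), with a 95% interval of -1.08 to -0.08, at an unadjusted p of 0.0285 and an adjusted p of 0.391 in edgeR's quasi-likelihood test. At -0.5814 before rounding, it passed the limit of 0.58 only just. Without sham 2 it was -0.31, and it also missed the limits without CCI 1 (-0.51) and without CCI 2 (-0.58, at an unadjusted p of 0.0674).

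The receptors themselves showed no call. Nr1h2, which encodes LXR beta, was at 36.9, 31.7 and 39.4 CPM in CCI and 37.7, 39.7 and 41.4 CPM in sham, with a log2 fold change of -0.14 (95% interval -0.36 to 0.09). Nr1h3, which encodes LXR alpha, was at 7.06, 5.98 and 7.13 CPM in CCI and 7.12, 5.51 and 6.67 CPM in sham, with a log2 fold change of 0.06 (-0.29 to 0.42). Both receptors overlapped between the groups.

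Lpcat3 and Mylip are further LXR targets. Lpcat3, which remodels membrane phospholipids, was at 36.6, 40.9 and 38.7 CPM in CCI and 35.6, 35.9 and 35.7 CPM in sham. Every CCI library was higher, but the log2 fold change was 0.12 with an interval that held 0 (-0.04 to 0.27). Mylip, an E3 ubiquitin ligase that marks lipoprotein receptors for degradation, was at 16.5, 21.3 and 19.4 CPM in CCI and 19.2, 16.3 and 14.5 CPM in sham. The groups overlapped, with a log2 fold change of 0.19 (-0.15 to 0.53). Over the 6 LXR genes the median log2 fold change was 0.09, and it was 0.04 without sham 2.

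**Figure D2:**
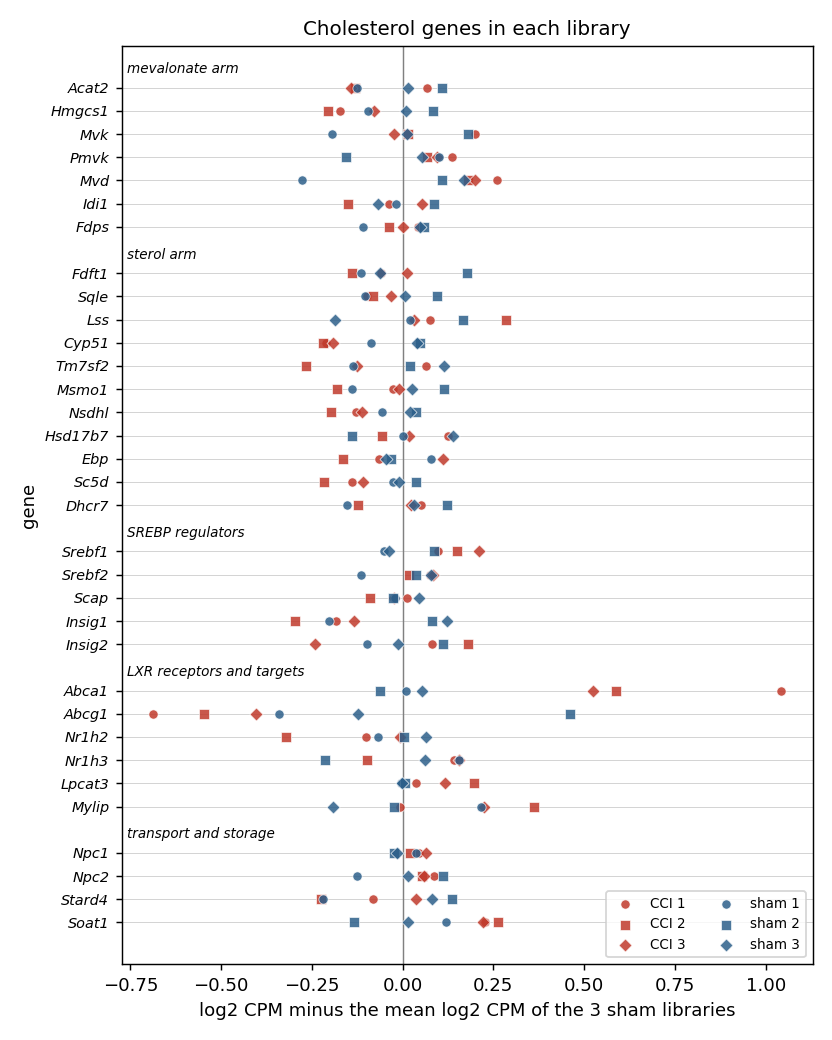
Log2 CPM of each cholesterol gene in each library minus the mean of the 3 sham libraries (horizontal axis), with CCI in red, sham in blue and the replicate number as the marker shape. Abca1 and Abcg1 spread widest, and in most synthesis enzymes the CCI and sham libraries overlap.

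Of the 18 synthesis enzymes 0 were called, and all 18 intervals of the log2 fold change lay within 0.58 of 0. The log2 fold changes ran from -0.21 to 0.20 with a median of -0.06, and 6 were above 0 and 12 below. That median was -0.01 without CCI 2 or without sham 2, -0.09 without CCI 3 and -0.11 without sham 1. The mevalonate arm (7 genes) had a median of 0.00 with 4 above 0, and the sterol arm (11 genes) a median of -0.07 with 2 above 0 and 9 below.

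In the mevalonate arm no gene reached an unadjusted p of 0.05. Hmgcs1, the cytosolic enzyme that makes HMG-CoA, was at 730.3, 713.4 and 779.3 CPM in CCI and 771.1, 872.7 and 829.0 CPM in sham. The groups overlapped through CCI 3 and sham 1, and the log2 fold change was -0.15 ± 0.07 (SE), with an unadjusted p of 0.0557 and an adjusted p of 0.480 in edgeR's quasi-likelihood test. Mvd, the decarboxylase that makes isopentenyl pyrophosphate, was at 31.4, 29.6 and 30.1 CPM in CCI and 21.6, 28.2 and 29.4 CPM in sham. Every CCI library was higher, but sham 2 and sham 3 lay close to the CCI libraries and sham 1 well below, and the log2 fold change was 0.20 (95% interval -0.10 to 0.50). Without sham 1 it was 0.07.

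The other enzymes of this arm overlapped between the groups. Fdps, which makes farnesyl pyrophosphate, had the same mean level in both groups, 316 ± 8.56 CPM in CCI and 316 ± 20.2 CPM in sham (SD, n = 3 each), and a log2 fold change of 0.00 (-0.15 to 0.15). Acat2, the cytosolic acetoacetyl-CoA thiolase, whose row also carries Acat2l1, had a log2 fold change of -0.07 (-0.28 to 0.14). For the kinases Mvk and Pmvk the log2 fold changes were 0.06 (-0.22 to 0.34) and 0.10 (-0.11 to 0.30). Idi1, the isopentenyl pyrophosphate isomerase, had -0.04 (-0.22 to 0.13).

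The sterol arm held the 3 enzymes with an unadjusted p under 0.05, and all 3 were lower in CCI by less than the fold limit. Cyp51 (chromosome 4, 27175243 to 27194018), the lanosterol demethylase, was at 230.8, 229.5 and 233.9 CPM in CCI and at 251.5, 275.9 and 274.5 CPM in sham. The CCI libraries lay close to each other and below every sham library. The log2 fold change was -0.21 ± 0.05 (SE), 0.866-fold, at an unadjusted p of 0.00753 and an adjusted p of 0.263 in edgeR's quasi-likelihood test.

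Sc5d (chromosome 8, 46525400 to 46537050), the desaturase of the late pathway, was at 188.0, 178.4 and 192.1 CPM in CCI and at 203.3, 212.8 and 205.7 CPM in sham. The groups did not overlap, and the log2 fold change was -0.15 ± 0.05 (SE), at an unadjusted p of 0.0217 and an adjusted p of 0.361. Nsdhl (chromosome X, 152933069 to 152964390), which helps remove the methyl groups at carbon 4 of the sterol, was at 81.0, 77.2 and 82.0 CPM in CCI and at 85.2, 90.9 and 89.8 CPM in sham. Its groups did not overlap either, and the log2 fold change was -0.15 ± 0.06 (SE), at an unadjusted p of 0.0351 and an adjusted p of 0.418 in the same test. Sc5d and Nsdhl both lost the unadjusted p under 0.05 without CCI 2 (0.0785 and 0.111) and without sham 2 (0.0719 and 0.103). Nsdhl also lost it without CCI 1 (0.0533) and without sham 3 (0.0905), while Cyp51 kept it on leaving out each library in turn (0.00285 to 0.0289). The neuron markers and the Schwann cell and myelin markers had median log2 fold changes of -0.20 and -0.14, and their part in the differences of these 3 enzymes was not tested.

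The remaining 8 sterol enzymes overlapped between the groups. Fdft1 and Sqle, which make squalene and its epoxide, had log2 fold changes of -0.07 (-0.28 to 0.15) and -0.07 (-0.23 to 0.08). Lss, which closes the ring, was at 96.2, 111 and 93.4 CPM in CCI and 92.7, 103 and 80.2 CPM in sham, with the highest estimate of the arm, 0.13 (-0.14 to 0.39). Tm7sf2, a sterol reductase whose row also carries Vps51 and a miRNA gene, had -0.11 (-0.36 to 0.15), and Msmo1, the methyl sterol oxidase, -0.07 (-0.27 to 0.13). Hsd17b7, a ketosteroid reductase, had 0.03 (-0.20 to 0.25). Ebp, the sterol isomerase, had -0.04 (-0.28 to 0.21), and Dhcr7, the reductase that makes cholesterol from 7-dehydrocholesterol, -0.02 (-0.24 to 0.20).

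The library medians of the enzymes overlapped between the groups. Relative to the sham mean, their median log2 CPM was 0.01, -0.14 and 0.00 in CCI 1, 2 and 3 and -0.10, 0.09 and 0.02 in sham 1, 2 and 3. CCI 2 and sham 1 were thus both low, and sham 2 was high. In CCI 2 14 of the 18 enzymes lay below the sham mean, and so did 14 in sham 1, while 3 did in sham 2. Over all 33 genes, sham 2 was the highest sham library for 19, and CCI 3 the highest CCI library for 17.

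Promoters of these enzymes are shown for the letters that SREBP and its partner NF-Y are known to bind. The sterol regulatory element core CACCCCAC and the NF-Y box CCAAT were searched on both strands. CACCCCAC stood in 2.70% of the 33469 promoters and in 1 of the 15 enzymes whose promoters could be matched, Ebp. Only these exact letters were searched, so variant forms of the element were not counted. CCAAT stood in 37.5% of all promoters, in 12 of the 15 matched enzymes (80.0%) and in 8 of the 13 other matched cholesterol genes. The shares of all promoters count promoters, while each cholesterol gene was counted once, if any promoter of it matched. Of the enzymes with an unadjusted p under 0.05, Nsdhl had 5 such boxes, 4 of them in the stretch printed, and Sc5d 1, and Cyp51 had none in the window. The stretches printed are chrX:16971242-16971301 on the plus strand for Ebp (220 to 161 bases before the start), chrX:155817220-155817319 on the plus strand for Nsdhl (140 to 41 before) and chr8:51538298-51538397 on the minus strand for Sc5d (120 to 21 before), all in GRCr8. Capitals mark CACCCCAC in Ebp, and CCAAT or its reverse complement ATTGG in the others.
Ebp: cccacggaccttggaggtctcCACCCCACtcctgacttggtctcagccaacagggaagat
Nsdhl: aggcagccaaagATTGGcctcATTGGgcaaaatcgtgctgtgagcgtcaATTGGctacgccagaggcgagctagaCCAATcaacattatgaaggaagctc
Sc5d: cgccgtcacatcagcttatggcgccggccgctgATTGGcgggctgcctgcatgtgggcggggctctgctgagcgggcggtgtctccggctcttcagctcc

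Among the 5 SREBP regulators 0 were called, and the log2 fold changes ran from -0.21 to 0.15 with a median of 0.02, which on leaving out 1 library ranged from -0.03 (without sham 1) to 0.07 (without sham 2). Srebf1 (chromosome 10, 46570996 to 46593009), whose product favours genes of fatty acid synthesis, was at 54.4, 56.4 and 58.9 CPM in CCI and at 49.1, 54.1 and 49.6 CPM in sham. Every CCI library was higher, CCI 1 only just above sham 2, and the log2 fold change was 0.15 ± 0.07 (SE), with an unadjusted p of 0.0558 and an adjusted p of 0.481 in edgeR's quasi-likelihood test. Insig1 (chromosome 4, 342302 to 350515), a sterol sensor that is itself raised by SREBP, was at 108.5, 100.4 and 112.4 CPM in CCI and at 107.1, 130.4 and 134.1 CPM in sham. Sham 1 lay among the CCI libraries, and the log2 fold change was -0.21 ± 0.10 (SE), with an unadjusted p of 0.0724 and an adjusted p of 0.524. On leaving out 1 library it ranged from -0.30 without sham 1, at an unadjusted p of 0.00548 and an adjusted p of 0.334 in edgeR's quasi-likelihood test, to -0.15 without sham 3, at an unadjusted p of 0.210.

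Srebf2, whose product favours genes of cholesterol synthesis, was at 294.7, 282.9 and 296.3 CPM in CCI and 258.0, 286.8 and 294.9 CPM in sham, with a log2 fold change of 0.06 (-0.10 to 0.21). Scap, the escort protein, had -0.03 (-0.16 to 0.10). Insig2, the second sensor, stood at 6.30 to 8.43 CPM in CCI and 6.95 to 8.04 CPM in sham, with 0.02 (-0.34 to 0.37). All of these overlapped between the groups.

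Of the 4 genes of transport and storage, Soat1 was the only one with an unadjusted p under 0.05. It encodes the enzyme that turns free cholesterol into esters for storage in droplets, and lies on chromosome 13 from 74035080 to 74077783. Its level was 16.6, 17.1 and 16.7 FPKM in CCI and 15.4, 12.8 and 14.1 FPKM in sham. All CCI libraries were higher and close to each other. The log2 fold change was 0.23 ± 0.08 (SE), 1.18-fold with an interval of 1.03 to 1.34, at an unadjusted p of 0.0235 and an adjusted p of 0.369 in edgeR's quasi-likelihood test. It lost the unadjusted p under 0.05 without CCI 2 (0.0655), sham 2 (0.0582) or sham 3 (0.0526). The macrophage markers were higher in CCI too, and their part in this difference was not tested.

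Npc1 and Npc2, which together carry cholesterol out of the lysosome, had log2 fold changes of 0.04 (-0.08 to 0.17) and 0.06 (-0.11 to 0.23), and the row of Npc1 also carries an unnamed locus. Stard4, a carrier of sterol through the cytosol, stood at 21.88 to 26.22 CPM in CCI and 21.95 to 28.11 CPM in sham, with -0.09 (-0.38 to 0.19). All of these overlapped between the groups. A further row with the symbol Stard4 held 544 to 1086 counts per library and was not used. Further rows of Soat1 (116 to 217 counts), Lss (54 to 235) and Scap (13 to 84) were not used either.

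**Figure D3:**
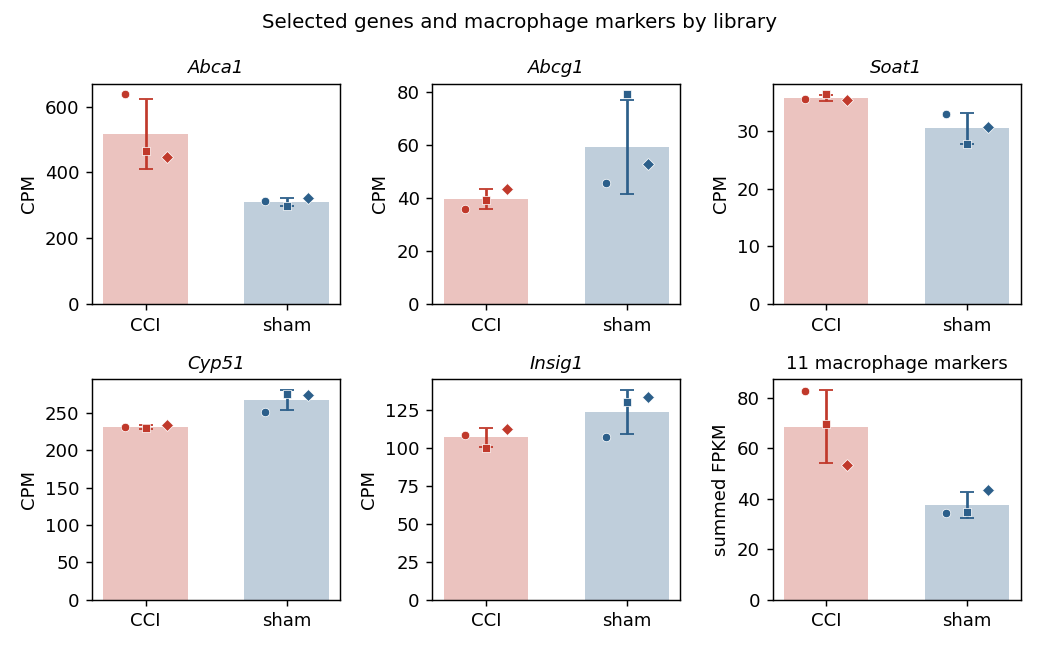
CPM of 5 cholesterol genes and the summed FPKM of 11 macrophage markers in each library, with bars for the mean, error bars for the SD (n = 3) and a point for each library (circle, square and diamond for replicates 1, 2 and 3). Abca1 and the macrophage markers are highest in CCI 1, and Insig1 in sham 1 lies among the CCI libraries.

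Levels were compared between genes as FPKM, which corrects for length. Hmgcs1 was the most abundant at a mean of 208 FPKM over the 6 libraries, followed by Cyp51 (67.9 FPKM), Msmo1 (60.7 FPKM), Sqle (59.8 FPKM) and Fdft1 (53.4 FPKM). Nr1h3 was the least abundant at 3.66 FPKM, below Hmgcs1 by a factor of 56.9. Of the 32 neighbouring pairs in this order, 27 had overlapping ranges over the 6 libraries and were not set apart by them. The 5 steps without overlap were Hmgcs1 over Cyp51, Npc2 over Fdps, Fdps over Srebf2, Srebf2 over Sc5d, and Mylip over Nr1h3. Abca1 had 20.3 ± 4.08 FPKM in CCI and 12.1 ± 0.493 FPKM in sham, and Abcg1 5.77 ± 0.591 FPKM in CCI and 8.52 ± 2.52 FPKM in sham (SD, n = 3 each).

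**Figure D4:**
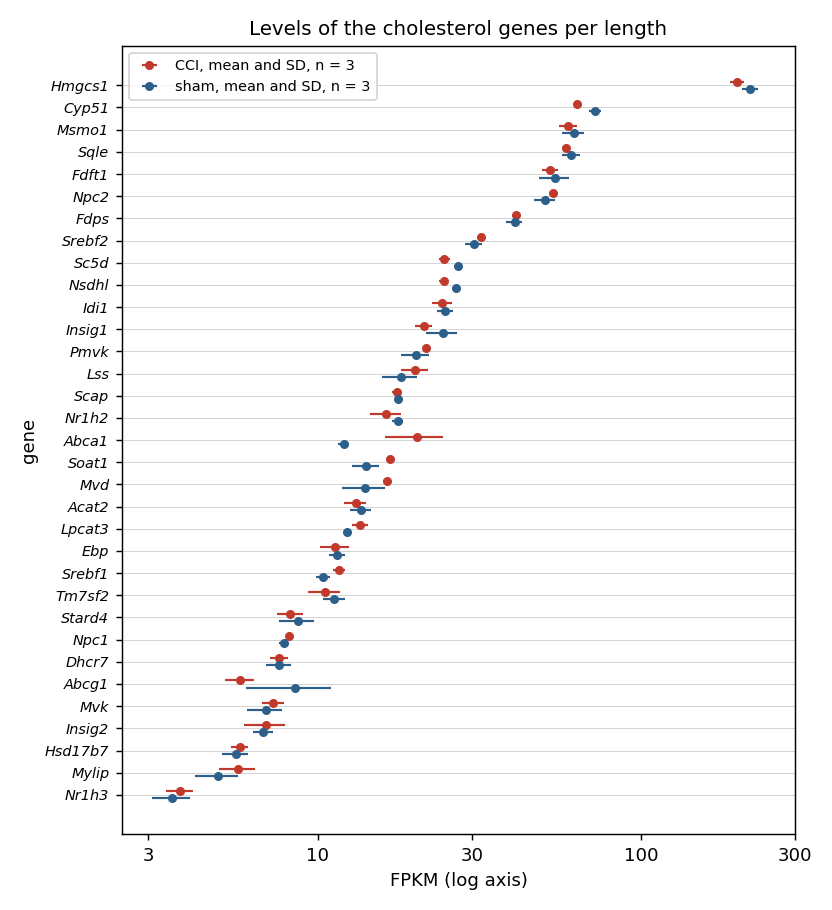
Mean FPKM of each cholesterol gene on a log axis, with the SD of the 3 libraries of each group, CCI in red and sham in blue, ordered by the mean over all 6 libraries. Hmgcs1 at 208 FPKM stands apart from the rest, and most neighbours in the order overlap.

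The wider pathway was read from the table's own annotation. From it came a list of 114 further symbols, most broadly for cholesterol or sterol synthesis, homeostasis, efflux or transport. The list is wider than cholesterol genes. It also holds genes of protein prenylation, such as Fnta, Fntb and Icmt, and Icmt is counted among the lower genes below. Some symbols are on a row shared with another gene, such as Mir6315 with Tm7sf2. The percentages are therefore shares of this list, not of cholesterol genes alone. The symbols stood on 103 rows, of which 73 were tested. Of these 1 was called higher and 1 lower, or 1.37% each way, against 2.57% and 1.26% of all rows. At an unadjusted p under 0.05, 5 were higher and 7 lower (6.85% and 9.59%, against 5.57% and 5.18% of all rows), 0 passed edgeR's quasi-likelihood test at an adjusted p under 0.05, and the median log2 fold change was -0.03.

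The gene called lower was Ttc39b, on a row shared with an unnamed locus. It stood at 58.1, 74.5 and 72.8 CPM in CCI and at 70.1, 140.0 and 153.1 CPM in sham, so that sham 1 lay among the CCI libraries, with a log2 fold change of -0.82 ± 0.29 (SE), an unadjusted p of 0.0257 and an adjusted p of 0.380 in that test. Its call was lost without CCI 1, CCI 3, sham 2 or sham 3, at unadjusted p values of 0.0519 to 0.0845.

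The fatty acid genes under SREBP1 showed no call. Of 14 genes 13 were tested, and edgeR's quasi-likelihood test gave 0 of them an unadjusted p under 0.05, and so 0 an adjusted one. Their log2 fold changes ran from -0.16 to 0.14 with a median of 0.04, and all 13 intervals lay within 0.58 of 0.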

How the data were processed

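RNA of the L4-6 DRG of 3 CCI and 3 sham rats was sequenced in paired ends after ribosomal depletion. The authors deposited raw counts per gene row, and FPKM values made from them. The submitters' processing notes name HISAT2 2.0 and StringTie 1.3.0. The genome is the rat build the authors call V101. The kit marks strand, but the use of strand in counting is not given in the sources used here, so overlapping or antisense genes are less certain. Totals ran from 75423546 to 87615743 counts. Rows without a symbol (6849, 5.37% to 5.72% of counts) stayed in the fit.

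Groups came from the labels. Rows averaging 0.5 FPKM or more (26663, of 35757 with any count) were fitted with edgeR 4.0.16 (quasi-likelihood, TMM factors 0.988 to 1.01, 2.52 prior degrees of freedom) in R 4.3.3. Calls used the study's limits, an unadjusted p under 0.05 and 0.58 or more on the log2 scale in either direction, and separately a Benjamini-Hochberg adjusted p under 0.05. The 95% intervals came from the same fit. CPM values use the TMM library sizes. With 3 libraries per group an exact two-sided permutation test cannot go below 0.1, so none was used. The p-values set the group difference against the spread between these libraries, moderated across the rows fitted.

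All 33 cholesterol genes are named, and of the annotated and fatty acid lists the genes called, except that the gene called higher in the annotated list is not reported here. The genes, lists and motifs were chosen with earlier results of these data known, and no list was tested. Same-numbered CCI and sham libraries did not deviate together (correlations -0.01, -0.02 and -0.05), so numbers were not taken as pairs. Alternatives were DESeq2 1.42.0, limma 3.58.1 on log2(FPKM + 1), other size factors and filters, a replicate block and leaving out each library, with rows with a symbol alone added after seeing the data. On simulated counts for this comparison (26661 genes), the test called 94 of 100 genes changed 2-fold, 55 of 100 changed 1.5-fold and 763 unchanged genes, and 3 changed genes at an adjusted p under 0.05. Python 3.11.15, pandas 2.3.3 and matplotlib 3.10.9 drew the plots.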

Additional observations from a re-analysis of the deposited data

How the results depend on the processing

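Under 14 alternative settings no cholesterol gene called at the study's limits changed direction, and 9 of the 33 changed sign under some setting, at values smaller than their standard errors. The median log2 fold change of all rows stayed between -0.001 and 0.0152. With limma on log2(FPKM + 1), 410 rows were called higher and 161 lower, against 686 and 336 with edgeR, and among rows with a symbol alone 214 were called lower. At an adjusted p under 0.05 DESeq2 called 432 rows higher and 319 lower, against 17 and 8 by edgeR, and 1 cholesterol gene, Abca1 (adjusted p = 6.81e-05).

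Abca1 was called under every setting except without CCI 1, so cholesterol genes called higher ranged from 0 to 1 on leaving out 1 library. Abcg1 was not called with limma (log2 fold change -0.46), a mean FPKM of at least 1 (-0.58), rows with a symbol alone (-0.58) or the replicate block, giving 0 cholesterol genes called lower each time, nor without CCI 1, CCI 2 or sham 2, for a range of 0 to 1. Cholesterol genes with an unadjusted p under 0.05 ranged from 1 to 3 higher and from 1 to 6 lower on leaving out a library. Rows at an adjusted p under 0.05 then ranged from 3 to 40 higher and 3 to 21 lower. The annotated genes called ranged from 1 to 2 higher and 0 to 2 lower, and without a filter were 2 higher and 3 lower. The median of the LXR genes ranged from 0.0427 (without sham 2) to 0.1286 on leaving out a library. The cause of these changes was not tested.

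With the block for the replicate number, 0 rows passed an adjusted p under 0.05 in either direction, 2 cholesterol genes had an unadjusted p under 0.05 with a lower level, 0 cholesterol genes were called lower, and Abcg1 had a log2 fold change of -0.54. The numbers do not pair the libraries. Fatty acid genes called stayed at 0 under all settings. Each cholesterol gene had at least 535 counts per library on average.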
